A study of Homo sapiens with 6 samples.

Results

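METTL16 rescue was compared with METTL16 knockout in NOMO-1 cells, an established line of monocytic human acute myeloid leukaemia. The comparison uses 4 of the 6 RNA-sequencing libraries of the study, 2 labelled sgMETTL16+OE-METTL16 (rescue) and 2 labelled sgMETTL16+EV (knockout), and every gene of the deposited table. Knockout cells carried a guide RNA against METTL16 and an empty overexpression vector (EV), and rescue cells carried the same kind of guide together with a vector that overexpressed METTL16. The other 2 libraries, labelled sgNS+EV, held the empty vector and a guide used as the control for guides, and are given beside the results as control. By the series' design text the overexpression vector came first and the endogenous gene was targeted afterwards by viral transduction, so rescue cells are a parallel culture and not knockout cells to which METTL16 was later returned. Puromycin (2 µg/ml, 1 to 2 weeks) was applied to all 3 groups to keep infected cells. Whether the selected cells were a pool or a clone, how many guides were used, and whether the vector's METTL16 resists the guide are not given in the sources used here.

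METTL16 is an RNA methyltransferase that places N6-methyladenosine in U6, the small nuclear RNA of the spliceosome, and in hairpins of the messenger RNA of MAT2A. MAT2A is the enzyme that makes S-adenosylmethionine, the methyl donor of the cell, from methionine. When S-adenosylmethionine is scarce METTL16 stays bound at these hairpins and the last intron of MAT2A is spliced, and this is how the protein links methionine metabolism to RNA processing. In myeloid leukaemia it has been studied as a regulator of branched-chain amino acid metabolism through the aminotransferases BCAT1 and BCAT2, which are therefore followed by name.

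Each gene has 1 abundance value in every library of the table, and this value is referred to as its signal. Of 15059 genes, 12734 reached a signal of 1 in 2 or more libraries and were tested. The signal summed to 597160 and 649342 in the knockout libraries and to 680458 and 681928 in the rescue libraries, and 4 abundant RNAs (RN7SL1, SNORD3A, RN7SK and RN7SL2) took 32.7% to 37.7% of each of the 6 sums. Read totals are not given in the sources used here. From the spacing of the values of short RNAs, a signal of 1 was estimated to stand for 46.0 to 49.6 reads over 2000 nt, and for only 1.18 to 1.27 reads over 100 nt, so small RNAs are far less precise than messenger RNAs at the same signal. Nothing in the labels says that replicates were separate cultures, so the p-values reflect the spread of these libraries alone, which may be technical. Of 13 markers of monocytic and myeloid leukaemia cells 11 were in the table, and their summed signal was 349 and 325 in control, 527 and 524 in knockout and 399 and 408 in rescue. MPO and CD14 were not analysed here. Lymphoid markers (5 of 11 in the table, nearly all of it NKG7) summed to 132 and 116 in control, 162 and 155 in knockout and 131 and 130 in rescue. Erythroid and megakaryocytic markers (3 of 10) summed to 1.77 to 2.76 in the 6 libraries, and epithelial and embryonic kidney markers (2 of 8) to 0.744 to 1.34.

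At an adjusted p of 0.05 (limma, Benjamini-Hochberg over all genes tested), 1982 genes, or 15.6%, rose in rescue against knockout and 2022, or 15.9%, fell. The changes were small for most genes, with a median absolute log2 difference of 0.34 among the risen and 0.36 among the fallen. At least 2-fold changes numbered 21 up and 35 down, which is 0.165% and 0.275% of the genes tested. The libraries of the 2 groups did not overlap in 72.9% of all genes tested, so separation of 2 against 2 libraries by itself marks little. When the signal was rescaled without the 4 most abundant RNAs, the split became 1930 risen and 3963 fallen, and the median over all genes moved from -0.01 to -0.08 on the log2 scale. Ranges given below over the alternatives refer to 15 other settings of the pseudocount, filter, scaling, model and libraries. The counts of lists given without a range moved over these alternatives as well. The counts of risen and fallen genes were 1154 and 1330 without rescue replicate 2, 1309 and 1449 without knockout replicate 2, 1373 and 1251 without rescue replicate 1, and 1513 and 1119 without knockout replicate 1. The first principal component of the 6 libraries (64.2% of the variance) placed knockout at 23.3 and 20, rescue at -7.89 and -7.71, and control at -13 and -14.7.

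The transcript of METTL16 itself (ENSG00000127804, minus strand of chromosome 17 from 2405562 to 2511891 in GRCh38) had a signal of 9.89 and 9.63 in control, 6.05 and 5.83 in knockout and 12.3 and 12.1 in rescue. Rescue was above knockout by 0.93 on the log2 scale (SE 0.082, adjusted p = 3.18e-06), and both rescue libraries were also above both control libraries, by 0.30 (adjusted p = 0.175). The messenger RNA level checks the labels only in part, because an edit that disrupts the protein need not remove its transcript, and the file does not say whether transcripts of the vector, which may lack the gene's untranslated regions, were counted.

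MAT2A (ENSG00000168906, chromosome 2, 85539165 to 85545280, plus strand) carries the hairpins that METTL16 methylates. Its 3' untranslated region held 6 copies of the nonamer TACAGAGAA or TACAGAAAA (written as DNA, sense strand only), the most of any of 10743 tested protein-coding genes in their longest GENCODE 29 coding transcript. PHIP, TTN and USP8 held 4, and 8.81% of these genes held at least 1. The 6 sites lie in the last exon on the plus strand at chr2:85543802-85543830, chr2:85544589-85544617, chr2:85544774-85544802, chr2:85544889-85544917, chr2:85545004-85545032 and chr2:85545112-85545140 (GRCh38), and are shown because they are the known METTL16 targets of a gene that rose in rescue. Capitals mark the nonamer and lower case the 10 bases on either side:
MAT2A site 1: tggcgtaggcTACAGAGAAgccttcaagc
MAT2A site 2: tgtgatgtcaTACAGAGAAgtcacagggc
MAT2A site 3: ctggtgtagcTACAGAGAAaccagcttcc
MAT2A site 4: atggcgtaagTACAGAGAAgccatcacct
MAT2A site 5: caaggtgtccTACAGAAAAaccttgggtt
MAT2A site 6: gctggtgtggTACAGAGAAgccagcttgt
Of the genes that rose, 10.8% held at least 1 nonamer, against 7.66% of those that fell and 8.62% of those with no call, a description of letters in transcripts that says nothing about methylation.

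The signal of MAT2A was 77.6 and 78.1 in the knockout libraries, 134 and 138 in rescue and 140.2 and 132 in control. Rescue was 1.74 times knockout, with a log2 difference of 0.79 (SE 0.055, adjusted p = 3.58e-07), and its libraries fell among those of control. PHIP, TTN and USP8, the other genes with many nonamers, did not pass the test, at 0.11, -0.20 and -0.17.

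In the methionine and S-adenosylmethionine cycle, 13 of 22 tested genes rose and 1 fell (median 0.24 on the log2 scale, against -0.01 over all genes, 8 to 16 risen over the alternatives, lowest without knockout replicate 2 and without rescue replicate 2). CTH, the enzyme that releases cysteine from cystathionine, went from 4.23 and 4.696 in knockout to 8.84 and 8.55 in rescue (log2 0.83, adjusted p = 3.07e-05), with 10.2 and 8.94 in control. ENOPH1, an enzyme of the salvage route that recovers methionine from polyamine synthesis, went from 11.5 and 11.98 to 19.1 and 21.9 (log2 0.75). Looked up after their values were seen, 3 more enzymes of that salvage route rose, MTAP by 0.44, APIP by 0.48 and MRI1 by 0.30, whereas ADI1, which acts later in the same route, was the only member that fell, by 0.36. ODC1, which starts polyamine synthesis, rose by 0.46 from 71.6 and 70.2 to 97.8 and 98.5. MAT2B, the regulatory partner of MAT2A, did not pass, at -0.09.

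BCAT1 and BCAT2 remove the amino group from leucine, isoleucine and valine in the cytosol and in mitochondria. BCAT2 (chromosome 19, 48795062 to 48811029, minus strand) had a signal of 13.2 and 12.1 in knockout, 25.6 and 25.2 in rescue and 29.1 and 25.2 in control, and rescue exceeded knockout by 0.95 (SE 0.08, adjusted p = 2.11e-06). BCAT1 (chromosome 12, 24810022 to 24949459, minus strand) had 14.5 and 15, 21.4 and 23 and 22.5 and 20.97 in the same order, a log2 difference of 0.56 (SE 0.073, adjusted p = 0.000102). For both genes the rescue libraries lay above knockout and overlapped control. The rest of the branched-chain pathway moved little. Of 26 genes 4 rose and 1 fell (median 0.08, 3 to 8 risen over the alternatives). Apart from the aminotransferases, the risen members were PCCB of the propionyl-CoA carboxylase at 0.48 and MCCC2, a subunit of methylcrotonyl-CoA carboxylase in leucine breakdown, at 0.30. The call for MCCC2 was lost without rescue replicate 2 (adjusted p = 0.0647). MUT, the methylmalonyl-CoA mutase, fell by 0.27. The subunits of the branched-chain ketoacid dehydrogenase, which commits the carbon skeletons to breakdown, did not pass, with BCKDHA at 0.03, BCKDHB at 0.11 and DBT at 0.11.

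**Figure D1:**
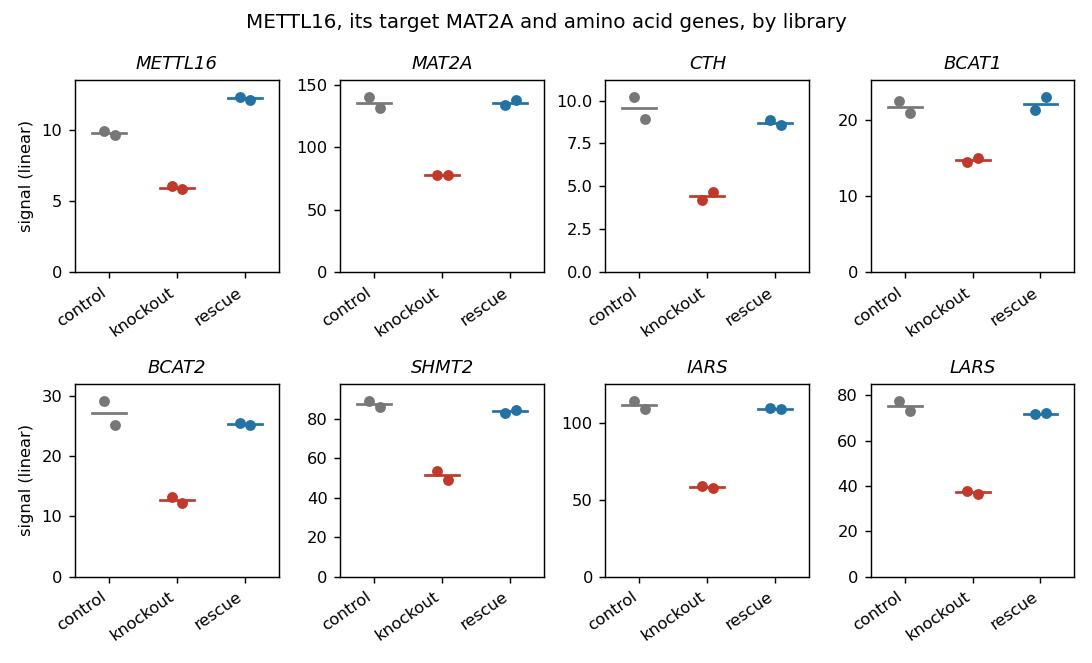
Signal of METTL16, MAT2A and 6 amino acid genes in each library (points) with the mean of each group (bars), on linear axes that start at 0. In every panel both rescue libraries lie above both knockout libraries; METTL16 is the gene whose rescue libraries also lie clear above control, at 12.3 and 12.1.

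Targets of ATF4, the transcription factor of the amino acid response, were higher in rescue as a group. Of 30 tested, 19 rose and 1 fell (median 0.30, 15 to 22 risen over the alternatives). PSAT1, which makes serine's precursor phosphoserine, had a signal of 59.3 and 61.2 in knockout, 96.2 and 98.4 in rescue and 106 and 99.95 in control (log2 0.68, adjusted p = 1.61e-06). TRIB3, a pseudokinase that restrains ATF4 signalling, rose by 0.70, from 34.7 and 30.2 to 53.8 and 52.5. DDIT3, the stress transcription factor CHOP, rose by 0.76, from 12.4 and 11.2 to 21.3 and 20.1. The ATF4 messenger RNA itself differed less, by 0.17 (adjusted p = 0.0303). The fallen member was SLC1A4, which carries alanine, serine and cysteine, by 0.25, looked up after the count was seen.

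Enzymes that move carbon from serine and glycine onto folate rose in 10 of 20 cases and fell in none (median 0.29, 9 to 14 risen over the alternatives). Of the risen, PSAT1, SHMT2, MTHFD2 and PSPH stand in the ATF4 list too, so the counts of these lists overlap. SHMT2, the mitochondrial serine hydroxymethyltransferase, went from 53.8 and 49.1 to 83.3 and 84.7 (0.70, adjusted p = 2.56e-06), where control had 88.95 and 86.1. MTHFD1L, which makes formate in mitochondria, rose by 0.65 and ATIC, which uses the folate carbon in purine synthesis, by 0.64. SHMT1, the cytosolic counterpart of SHMT2, was at 0.10 and did not pass.

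Cytosolic aminoacyl-tRNA synthetases, which load amino acids onto transfer RNAs, rose in 12 of 23 cases and fell in 1 (median 0.20, 8 to 14 risen over the alternatives). The 3 that serve the branched-chain amino acids were among the 4 with the smallest p. LARS, for leucine, had 37.7 and 36.6 in knockout, 71.9 and 71.99 in rescue and 77.2 and 72.9 in control (log2 0.93, adjusted p = 1.45e-07). IARS, for isoleucine, had 59.1 and 57.4, 109.6 and 109 and 114 and 109 in the same order (0.90), and VARS, for valine, 24.5 and 22.5, 36.3 and 35.9 and 37.1 and 33.02 (0.60). CARS, for cysteine, rose by 0.56. RARS, for arginine, fell by 0.17, while HARS, SARS, DARS and AARS did not pass, between -0.09 and 0.08. XPOT, the exporter of transfer RNAs from the nucleus and a gene in none of the lists, looked up after its value was seen, rose by 1.08, from 36.8 and 37.6 to 78.2 and 81.0.

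Amino acid transporters of the plasma membrane rose in 9 of 17 cases and fell in 1, the same SLC1A4 (median 0.19). SLC7A5, the carrier of leucine and other large neutral amino acids, went from 56.7 and 53.6 to 73.8 and 72.7 (0.40) and SLC1A5, the glutamine carrier, from 122 and 117 to 152 and 151 (0.34). SLC7A1, which carries arginine and lysine, rose by 0.44 and SLC6A6, the taurine carrier, by 0.41. SLC38A2, a further glutamine carrier, was at 0.01 and did not pass.

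The binding motif of ATF4 with its C/EBP partners, the octamer TGATGNAA, was searched on both strands in RefSeq promoter windows (GRCh38.p14, 250 bases before to 50 after the start). It stood in 3.62% of all 35116 windows, and in the windows of 261 of the 9759 tested genes that had one (2.67%). A gene with several windows counted if any of them held the octamer. Windows with it were found for 8 of 25 ATF4 list genes that had one (32.0%), 7 of 19 synthetase genes (36.8%) and 5 of 15 transporter genes (33.3%), and the ATF4 and transporter lists share 7 tested genes, 4 of them with the octamer. Among lists of other function with at least 10 such genes, the shares were highest in granule proteins, at 2 of 10, and in the MLL fusion programme, at 3 of 19 (15.8%). The ATF4 list was compiled from known targets, so its share repeats what chose it. Stretches around the octamer of 6 genes that rose are shown, with the octamer in capitals, each read on the strand that carries it: SLC7A1 at chr13:29595654-29595701 (minus), SLC1A5 at chr19:46784884-46784931 (minus), ASNS at chr7:97872449-97872496 (minus), IARS at chr9:92293683-92293730 (plus), CARS at chr11:3057398-3057445 (plus) and GARS at chr7:30594825-30594872 (minus):
SLC7A1: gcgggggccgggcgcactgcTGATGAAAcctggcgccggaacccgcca
SLC1A5: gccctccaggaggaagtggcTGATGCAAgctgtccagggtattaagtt
ASNS: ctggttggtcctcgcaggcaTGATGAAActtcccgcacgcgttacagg
IARS: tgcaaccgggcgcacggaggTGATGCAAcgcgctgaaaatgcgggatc
CARS: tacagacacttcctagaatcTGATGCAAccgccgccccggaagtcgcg
GARS: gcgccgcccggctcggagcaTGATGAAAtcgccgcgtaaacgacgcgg
Of these genes, IARS and CARS are described above, ASNS, the asparagine synthetase, rose by 0.39 and GARS, the glycyl-tRNA synthetase, by 0.33. The SLC1A5 stretch belongs to a start inside the gene's GENCODE span (46774883 to 46788594, minus strand), not to its outermost start. SLC1A4, the member that fell, also held the octamer, and the window of PSAT1 did not. Of ATF4 list genes with the octamer 5 of 8 rose and 1 fell, where 19 of all 30 tested rose. Of synthetases with it 4 of 7 rose and 0 fell, where 12 of all 23 rose, and AARS, NARS and TARS did not pass. Of transporters with it 4 of 5 rose and 1 fell, where 9 of all 17 rose. No binding was measured.

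**Figure D2:**
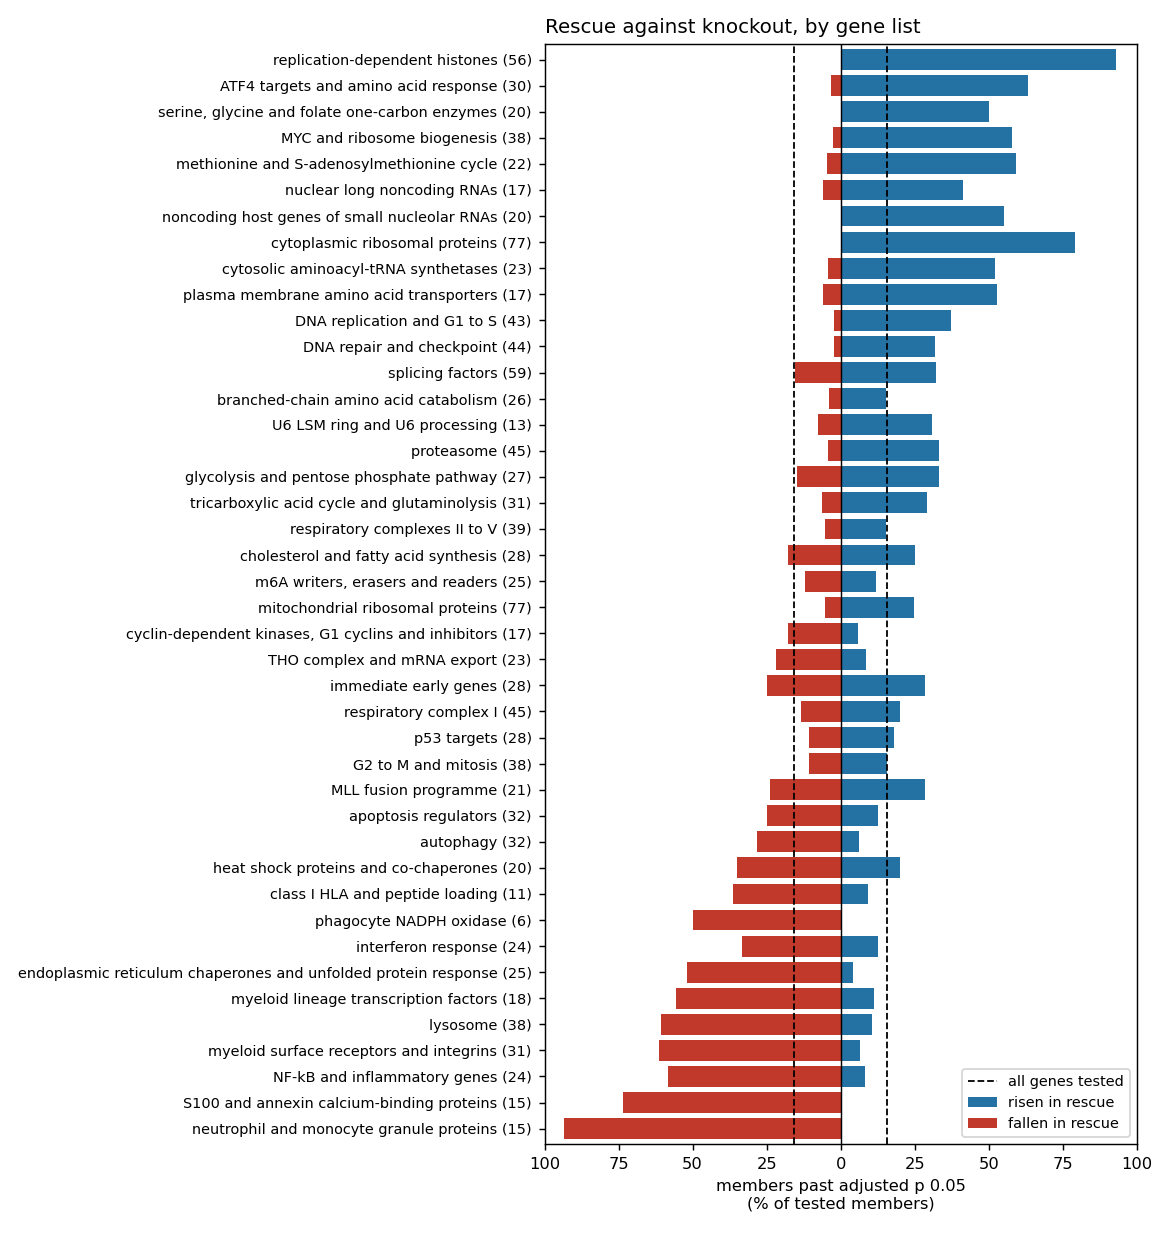
Share of the tested members of each gene list (number tested in parentheses) that rose (blue, right) or fell (red, left) in rescue against knockout at an adjusted p of 0.05, ordered by the median difference, with dashed lines at the shares over all genes tested, 15.6% and 15.9%. Histones, amino acid and ribosome lists stand at the top, and granule, S100 and inflammatory lists at the bottom.

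MYC, the transcription factor that drives ribosome production, went from 64.3 and 65.3 in knockout to 106 and 109.7 in rescue (log2 0.73, SE 0.059, adjusted p = 1.49e-06), and control had 95.7 and 87.1. In the list of MYC and ribosome biogenesis factors, 22 of 38 genes rose and 1 fell (median 0.25, 17 to 29 risen over the alternatives). NOLC1, a nucleolar chaperone of small nucleolar particles, rose by 0.70 (from 63.8 and 65.4 to 105 and 107), FBL, the methyltransferase of box C/D particles, by 0.48, and DDX21, a nucleolar helicase, by 0.43. NOP10, a small protein of the box H/ACA particles, was the member that fell, by 0.35, whereas its partners DKC1 and NHP2 were at 0.33 (risen) and 0.22 (not past the test). These 2 were looked up after the count was seen.

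Cytoplasmic ribosomal proteins rose in 61 of 77 cases and none fell (median 0.21). The count depends on scaling: after quantile normalization 18 rose, 6 fell and the median was 0.035, and without a trend 34 rose. RPS12 stood out from the list, with 544 and 534 in knockout, 910.1 and 956 in rescue and 979 and 926 in control (log2 0.79, adjusted p = 2.54e-07). RPL13A followed with 338 and 322 in knockout and 528 and 532 in rescue (0.68), then RPLP0 of the ribosomal stalk (0.63) and RPL12 (0.50). After these 4, the members lay between -0.07 and 0.35.

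Noncoding host genes, whose introns give rise to small nucleolar RNAs, rose in 11 of 20 cases with none fallen (median 0.21, 6 to 12 risen over the alternatives, lowest without rescue replicate 1). SNHG3 went from 43.6 and 41.4 to 67.4 and 67.3 (0.65), SNHG8 rose by 0.47, GAS5 by 0.35 and SNHG5 by 0.34.

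Replication-dependent histones, whose messages are made in S phase and end in a stem-loop in place of a poly(A) tail, had the largest share of risen members of any list. Of 56 tested genes 52 rose and none fell (median 0.37, 45 to 52 risen over the alternatives). HIST1H4I went from 269 and 269 in knockout to 413 and 425 in rescue, with 427 and 412 in control (0.64, adjusted p = 1.11e-06). HIST1H2BL rose by 0.62, HIST1H2BJ by 0.50 and the linker histone gene HIST1H1C by 0.50. Histone genes are near-identical copies, some pairs such as HIST2H4A and HIST2H4B carry the same values, and reads may be split among them, so the count overstates the number of separate measurements. Under quantile normalization 2 members counted as fallen.

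Genes of DNA replication rose in 16 of 43 cases and fell in 1 (median 0.15, 11 to 24 risen over the alternatives), led by MCM4 of the replicative helicase (0.52, from 74.4 and 72.8 to 105 and 107), the primase subunit PRIM1 (0.39), POLA1 (0.38) and the phosphatase CDC25A (0.39). DNA repair and checkpoint genes rose in 14 of 44 and fell in 1 (median 0.12, 5 to 25 risen over the alternatives, lowest without rescue replicate 2). XRCC2, a recombination factor, rose by 0.65 and PRKDC, the DNA-dependent kinase of end joining, by 0.52. Mitotic genes showed no common direction in the main fit, with 6 risen, 4 fallen and 28 with no call (median -0.03). Over the alternatives 3 to 9 rose and 1 to 16 fell. The spindle checkpoint kinases BUB1 (0.57) and BUB1B (0.52) rose, ANLN, a scaffold of the cleavage furrow, fell by 0.35, and MKI67, the common proliferation marker, did not pass at -0.07.

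Among cyclins and their inhibitors 1 of 17 rose and 3 fell. CCND2, a G1 cyclin, went from 10.3 and 10.9 to 21.4 and 21.9 (0.97, adjusted p = 8.04e-07). CCNA1, a cyclin of germ cells and of leukaemic cells, went the other way, from 27.8 and 27.97 to 11.04 and 11.9 (-1.21), with 8.76 and 8.43 in control. The inhibitors CDKN1B (-0.25) and CDKN1A (-0.30) also fell, but these calls were each lost under at least 1 alternative. The p53 targets had 5 risen and 3 fallen of 28 (median -0.01). Among apoptosis regulators 4 rose and 8 fell of 32 (median -0.09, 3 to 17 fallen over the alternatives, lowest without knockout replicate 1 and without rescue replicate 1). The risen ones included the inhibitors API5 (1.21, from 21.7 and 22.3 to 51.8 and 52.6) and BCL2A1 (0.76, from 100.2 and 97.4 to 172 and 165). The fallen ones included BMF, a BH3-only protein (-0.68).

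**Figure D3:**
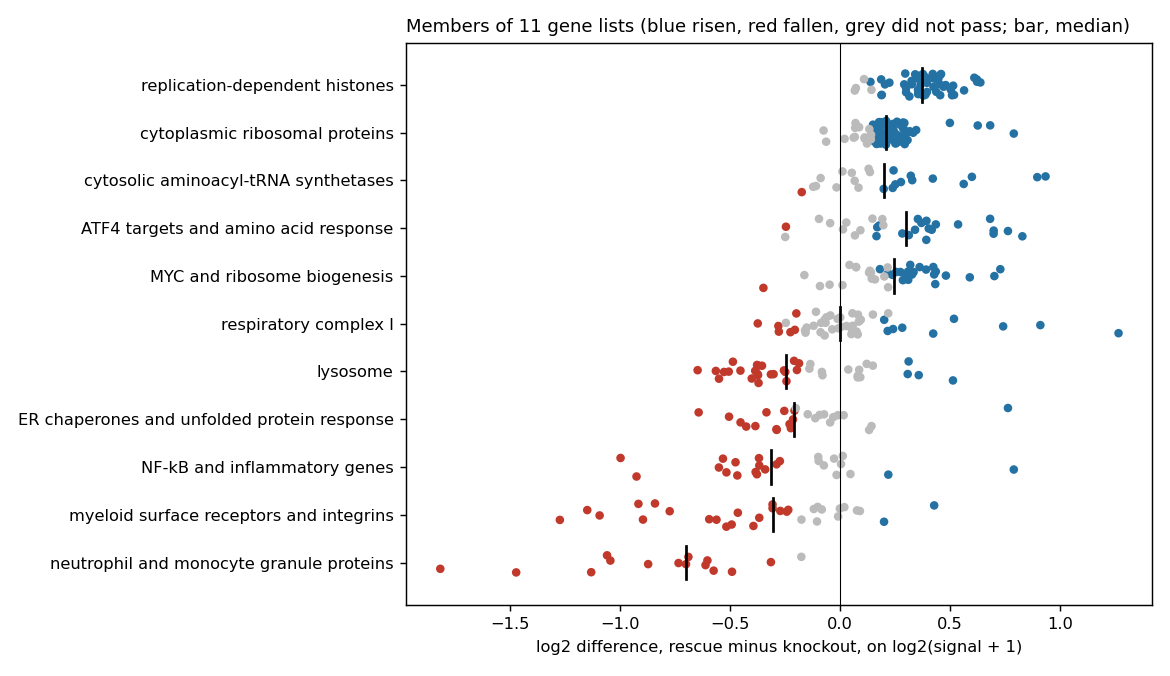
Log2 difference between rescue and knockout for each tested member of 11 gene lists, coloured by call, with the list median as a bar. Histone and ribosomal members crowd to the right of 0 and granule members to the left, while respiratory complex I centres on 0 with NDUFS3 at 1.27 far to the right.

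Energy metabolism showed single large movers in lists that otherwise stayed near 0. Respiratory complex I had 9 of 45 genes risen and 6 fallen, with a median of 0.00. Its subunit NDUFS3 (chromosome 11, 47565336 to 47584562, plus strand) went from 24.99 and 23.9 in knockout to 61.7 and 58.8 in rescue, with 66.3 and 62.95 in control (1.27, SE 0.061, adjusted p = 3.67e-08). NDUFB8 went from 42.7 and 40.1 to 80.7 and 76.6 (0.91) and NDUFA6 from 29.03 and 28.5 to 48.4 and 49.1 (0.74). In complexes II to V, 6 of 39 rose and 2 fell (median 0.05, and -0.023 when rescaled without the 4 most abundant RNAs), with UQCRC1, a core protein of complex III, at 0.81. Mitochondrial ribosomal proteins had 19 risen and 4 fallen of 77 (median 0.02), and MRPL21 went from 13.8 and 12.6 to 30.9 and 33.04 (1.22), the next member being MRPS27 at 0.52.

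In glycolysis and the pentose phosphate pathway 9 of 27 rose and 4 fell (median 0.06, and -0.0075 after that rescaling). PFKL, the liver-type phosphofructokinase, went from 12.9 and 11.98 to 27.9 and 28.7 (1.12, adjusted p = 2.39e-07), while its platelet-type counterpart PFKP was at 0.07 and did not pass. The tricarboxylic acid cycle had 9 risen and 2 fallen of 31 (median 0.06, and -0.017 after rescaling), with the mitochondrial aspartate aminotransferase GOT2 at 0.52 and IDH1, the cytosolic isocitrate dehydrogenase, at -0.41. Of cholesterol and fatty acid genes 7 rose and 5 fell of 28, with FDPS, the farnesyl diphosphate synthase, at 0.71.

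Products of maturing neutrophils and monocytes had the lowest median of the lists. Of 15 granule proteins 14 fell and none rose in rescue against knockout (median -0.70), and between 13 and 15 fell under every alternative. CTSG (chromosome 14, 24573522 to 24576260, minus strand), the protease cathepsin G, had a signal of 1364 and 1340.0 in knockout, 492 and 482 in rescue and 324 and 304 in control. It fell by 1.47 on the log2 scale (SE 0.052, adjusted p = 1.01e-09). SLPI (chromosome 20, 45252239 to 45254564, minus strand), which inhibits that protease and neutrophil elastase, had 20.5 and 20.5, 4.79 and 5.42 and 3.41 and 3.16 in the same order and fell by 1.82 (SE 0.091, adjusted p = 3.67e-08). For both genes the rescue libraries lay between the other groups and overlapped neither.

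The same order was seen for CHI3L1, a chitinase-like protein of neutrophil granules, with 323 and 324 in knockout, 155 and 154 in rescue and 129 and 118 in control (-1.06). RNASE3, the eosinophil cationic ribonuclease, had 111 and 103, 51.4 and 51.6 and 36.3 and 34.2 (-1.04). LYZ, lysozyme, had 81.9 and 87.2, 55.03 and 57.8 and 30.9 and 31.1, a smaller fall of 0.57. ELANE, neutrophil elastase, fell by 1.13, from 92.5 and 81.2 to 38.8 and 39.3, and is shown with the granule genes although it was looked up after its values were seen. AZU1, azurocidin, did not pass at -0.18.

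S100 proteins and annexins, calcium-binding proteins abundant in phagocytes, fell in 11 of 15 cases with none risen (median -0.32, 7 to 12 fallen over the alternatives, lowest without rescue replicate 1). S100A8, which pairs with S100A9 as calprotectin, had 30.5 and 27.3 in knockout, 11.7 and 12.6 in rescue and 5.21 and 5.36 in control (-1.18, adjusted p = 3.99e-07). S100A4 went from 826 and 803 to 494 and 497 (-0.72), ANXA1 from 81.1 and 82.4 to 42.97 and 43.03 (-0.91) and ANXA2 from 218 and 214 to 135 and 135 (-0.67). In bulk RNA, fewer cells of a mature type and less RNA of these genes per cell cannot be told apart. The summed signal of lymphoid markers was also highest in knockout, and 2 of 4 tested fell, where 15.9% of all genes tested did. NKG7, a granule protein of cytotoxic lymphocytes, had 155 and 148 in knockout, 126 and 125 in rescue and 128 and 112 in control (-0.27, adjusted p = 0.00591). CD2, a T cell adhesion receptor, had 3.02 and 2.86, 0.794 and 0.6401 and 0.7403 and 0.636 in the same order (-1.20, adjusted p = 4.71e-06), but it passed the filter on low values through the knockout libraries alone. The part of these markers in the myeloid fall was not tested.

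Surface receptors and integrins of myeloid cells fell in 19 of 31 cases and rose in 2 (median -0.31). FPR1, the receptor for formylated bacterial peptides, had 14.5 and 12.3 in knockout, 5.495 and 4.42 in rescue and 3.498 and 3.22 in control (-1.27). CCR2, the chemokine receptor of classical monocytes, was low throughout, at 2.84 and 2.698, 0.732 and 0.667 and 0.5505 and 0.554 (-1.15). It passed the filter on low values through the knockout libraries alone. LILRA2 fell by 0.92 and CD68, a macrophage marker, by 0.77. CSF1R, the receptor for macrophage colony-stimulating factor, went from 2.91 and 2.59 to 1.07 and 0.955 (-0.90). With 0.817 and 0.881 in control, CSF1R too would not have passed that filter without the knockout libraries. The members that rose were ITGB2, the shared chain of the leukocyte integrins, at 0.43, and CD4 at 0.20, while the integrin chain ITGAM was at 0.09 and CD33 at -0.12, neither past the test. ITGB2, CD4, ITGAM and CD33 were looked up after the counts were seen.

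Myeloid transcription factors fell in 10 of 18 cases and rose in 2 (median -0.23). KLF4, which promotes monocyte differentiation, went from 6.76 and 6.63 to 3.48 and 3.26 (-0.82), ID2 from 68.8 and 74.3 to 44.4 and 44.5 (-0.67), IRF8 fell by 0.42 and LMO2 by 0.34. The lineage-defining factors SPI1 and CEBPA moved by less, -0.23 and -0.24, and CEBPB (0.31) and CEBPG (0.18) were the ones that rose. CEBPB and CEBPG stand in the ATF4 list too, and CEBPG passed narrowly (adjusted p = 0.0484). Among 6 subunits of the phagocyte NADPH oxidase 3 fell, among them CYBA by 0.47 and RAC2 by 0.17, and the call for RAC2 was lost under at least 1 alternative.

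NOMO-1 carries a fusion of the MLL (KMT2A) gene, and the programme of genes linked to such fusions split. Of 21 genes 6 rose and 5 fell (median -0.06). IGF2BP2, an RNA-binding reader of N6-methyladenosine, went from 5.88 and 6.399 in knockout to 12.4 and 12.6 in rescue, with 13.2 and 12.6 in control (0.92, adjusted p = 3.74e-06). IGF2BP3 rose by 0.58 and DOT1L, the histone methyltransferase recruited by MLL fusions, by 0.54. MEIS1 fell, from 62.7 and 65.3 to 45.8 and 47.4 (-0.45), and its partner HOXA9 did not pass at -0.06.

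**Figure D4:**
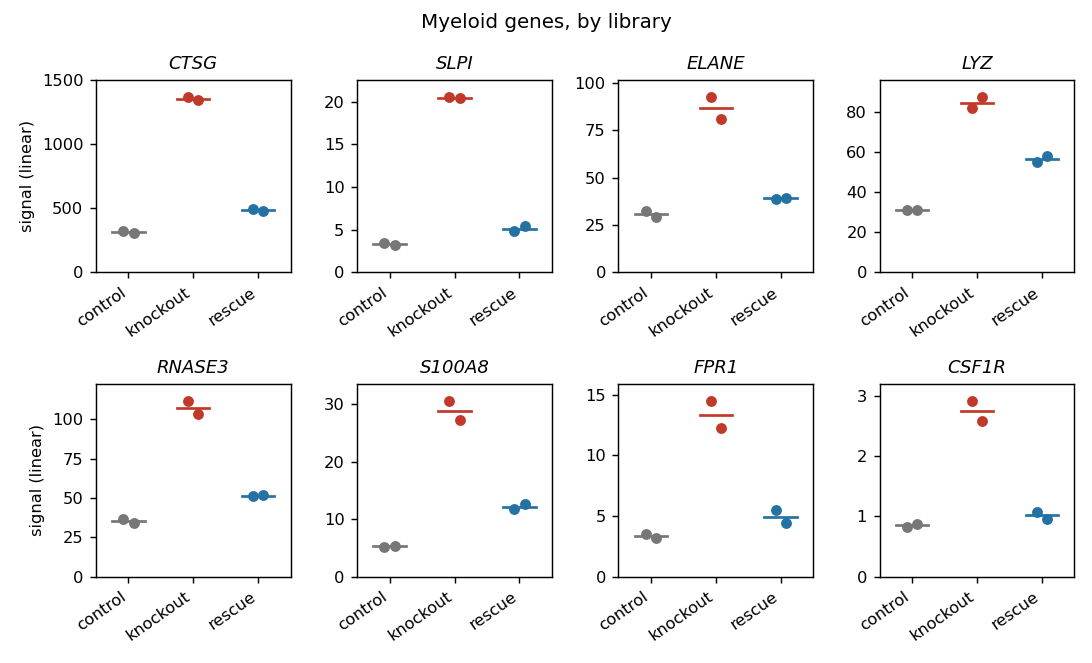
Signal of 8 myeloid genes in each library (points) with the mean of each group (bars), on linear axes that start at 0. In every panel knockout is highest; rescue lies below it but above both control libraries, as for LYZ at 55.03 and 57.8 in rescue and 30.9 and 31.1 in control.

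Lysosomal genes fell in 23 of 38 cases and rose in 4 (median -0.25, 17 to 27 fallen over the alternatives). GLA, alpha-galactosidase, went from 62.4 and 58.1 to 36.7 and 39.5 (-0.65), CD63, a tetraspanin of lysosomes and granules, from 146 and 135 to 95.5 and 93.7 (-0.56), and CTSZ fell by 0.55. GUSB, beta-glucuronidase, rose by 0.51, and the other 3 risen members were CTSA, GAA and MAN2B1. These 4 were looked up after the count was seen. Autophagy genes had 9 fallen and 2 risen of 32 (median -0.14, 2 to 18 fallen over the alternatives, lowest without knockout replicate 1), and TP53INP2, which brings autophagy proteins out of the nucleus, fell from 15.4 and 15.5 to 4.998 and 5.25 (-1.43), well apart from ATG2A, the next member at -0.52.

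NF-kB and inflammatory genes fell in 14 of 24 cases and rose in 2 (median -0.31). Parts of the inflammasome, which activates caspase-1, led the list. CASP1 went from 19.1 and 18.6 to 8.797 and 9.08 (-0.998), the sensor NLRC4 from 6.41 and 7.31 to 3.23 and 3.04 (-0.93) and the adaptor PYCARD from 43.5 and 39.4 to 28.2 and 28.5 (-0.53). CCL2, a monocyte chemoattractant, moved the other way, with 5.36 and 5.196 in knockout, 9.498 and 10.2 in rescue and 7.52 and 6.01 in control (0.79). Interferon response genes fell in 8 of 24 (median -0.18, 5 to 15 fallen over the alternatives, lowest without rescue replicate 2), among them XAF1 (-0.60) and the factors IRF1 (-0.55) and IRF9 (-0.48), whereas PSMB8 of the immunoproteasome rose by 0.39. Class I HLA and peptide loading genes had 4 fallen and 1 risen of 11. The risen one was PSMB8, counted above, and the fallen included CALR and PDIA3, counted below as chaperones, and the proteasome gene PSMB10. These lists therefore overlap.

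Chaperones of the endoplasmic reticulum and genes of the unfolded protein response fell in 13 of 25 cases (median -0.21, 7 to 21 fallen over the alternatives, lowest without knockout replicate 1, without rescue replicate 1 and without rescue replicate 2). CALR, calreticulin, went from 923 and 889 to 636 and 641 (-0.50), CRELD2 fell by 0.64 and PDIA3, a disulfide isomerase, by 0.33. The member that rose was DDIT3, which also stands in the ATF4 list. Most ATF4 targets thus rose, while 13 of these 25 genes fell, where 15.9% of all genes tested did. Of heat shock genes 7 fell and 4 rose of 20. The stress-inducible HSPA1A went from 47.4 and 43.5 to 21.9 and 22.9 (-0.99) and DNAJB1 fell by 0.57, whereas the mitochondrial chaperone HSPA9 rose by 0.33.

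Immediate early genes split into 8 risen and 7 fallen of 28. ETV5 went from 15.1 and 14.3 to 32.3 and 31.5 (1.07) and ETV4 from 1.703 and 1.62 to 4.95 and 5.11 (1.18), both transcription factors induced by growth factor signalling. SPRY4 (0.43), DUSP4 (0.41) and FOSL1 (0.62) rose with them, looked up after the count was seen. BTG2, an antiproliferative gene, fell by 0.59, and FOS, JUN and JUNB fell by 0.49, 0.34 and 0.30.

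RNA processing genes, the group closest to the U6 role of METTL16, had calls in both directions. Over all genes tested 15.6% rose and 15.9% fell, and the fallen share of splicing factors was close to the latter. Splicing factors had 19 risen and 9 fallen of 59 (median 0.10, 4 to 32 risen over the alternatives, lowest without rescue replicate 2). PRPF3, a protein of the U4/U6 particle, went from 70.6 and 72.2 in knockout to 46.7 and 46.6 in rescue, with 42.4 and 39.8 in control (-0.60). U2AF1, which reads the 3' splice site, fell by 0.59, from 43.5 and 42.1 to 29.6 and 26.7, while TRA2A rose by 0.43 and EFTUD2 by 0.36. Of 13 genes of the LSM ring and U6 processing 4 rose, namely METTL16, SSB (0.40), LARP7 (0.37) and LSM6 (0.24), and USB1 fell (-0.29). METTL16 was the gene targeted and overexpressed, so its rise is not a result about this list. Calls for LARP7 and USB1 were lost under at least 1 alternative. Other writers, erasers and readers of N6-methyladenosine had 3 risen and 3 fallen of 25, both below the shares over all genes. METTL3 and METTL14, the main writer pair, did not pass at 0.05 and -0.04.

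Genes of the THO complex and of mRNA export had 2 risen and 5 fallen of 23, and THOC3 stood apart. THOC3 (chromosome 5, 175917873 to 176034680, minus strand) had 11.6 and 10.5 in knockout, 30.04 and 28.9 in rescue and 33.4 and 28.5 in control (1.34, SE 0.083, adjusted p = 1.45e-07), while the fellow subunits THOC1, THOC2, THOC5, THOC6 and THOC7 lay between -0.20 and 0.19. Among nuclear long noncoding RNAs 7 of 17 rose and 1 fell. MALAT1, a RNA of nuclear speckles, had 465 and 474 in knockout, 894 and 919 in rescue and 1092 and 1024 in control (0.95, adjusted p = 6.37e-08). PVT1 rose by 0.61 and OIP5-AS1 by 0.39, and NORAD fell by 0.25. Proteasome genes had 15 risen and 2 fallen of 45 (median 0.07, and -0.0041 when rescaled without the 4 most abundant RNAs).

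Several of the largest single rises fell outside these groups or on small RNAs. C17orf49, a component of chromatin remodelling complexes (chromosome 17, 7014495 to 7017525, plus strand), went from 2.68 and 4.24 in knockout to 13.6 and 15.2 in rescue, with 16.7 and 14.01 in control (1.81, adjusted p = 8.04e-07). Its span lies almost wholly within that of the read-through gene RNASEK-C17orf49, which fell by 0.39 (adjusted p = 0.0323), so the quantifier may have divided shared reads between them. PUS7, a pseudouridine synthase, went from 7.64 and 7.24 to 18.9 and 18.9 (1.24). DHRS9, a retinol dehydrogenase, fell from 8.94 and 8.03 to 2.595 and 2.58 (-1.40) and LILRA5, a myeloid receptor, from 7.93 and 7.59 to 2.84 and 2.68 (-1.22).

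Small RNAs gave values that cannot be read with the same trust. MIR616 (chromosome 12, 57519163 to 57519259, minus strand) lies inside DDIT3 on the same strand, and had 0.946 and 0.948 in knockout, 6.38 and 4.704 in rescue and 0.841 and 0.858 in control (1.74, adjusted p = 4.74e-07). SNORD34 (chromosome 19, 49490904 to 49490974, plus strand) lies inside RPL13A, and had 7.47 and 2.56 in knockout and 20.7 and 10.5 in rescue (1.52). The library protocol was not made for small RNAs, and reads of the host gene and of the small RNA cannot be told apart here. MIRLET7D, with 2.24 and 1.14 and 6.65 and 4.58 (1.31), SNORD143, with 4.62 and 4.72 and 12.7 and 12.97 (1.29), and SNORA78, with 2.17 and 1.64 and 4.27 and 7.74 (1.23), were the other small RNAs that rose most. SNORD45C fell the most, from 14.3 and 8.797 to 1.47 and 1.51 (-2.30, adjusted p = 5.67e-07), and SNORD36C fell by 1.22.

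MIR3687-1 and MIR3687-2 carry identical values and had the largest fitted difference of all genes, with 1 knockout library far below the other 5 libraries. They had 0.922 and 111 in the knockout libraries, 302 and 295 in rescue and 743 and 278 in control. The log2 difference of 4.35 (SE 1.1, adjusted p = 0.0102) lost its call under 6 alternatives each, with adjusted p from 0.0762 to 0.0899. SNORD116-14 (27.1 and 17.5 in knockout and 2.33 and 12.3 in rescue), SNORA22 (10.04 and 6.85 and 6.38 and 1.01) and MIR6739 (19.04 and 19.4 and 16.6 and 3.38) fell with 1 rescue library far below the other, and their calls were lost under at least 1 alternative too. In all, 199 small nucleolar RNAs were tested, of which 41 rose and 19 fell (20.6% and 9.55%). Of 79 microRNA precursors 10 rose and 10 fell (12.7% each). Over all genes tested the shares were 15.6% risen and 15.9% fallen.

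**Figure D5:**
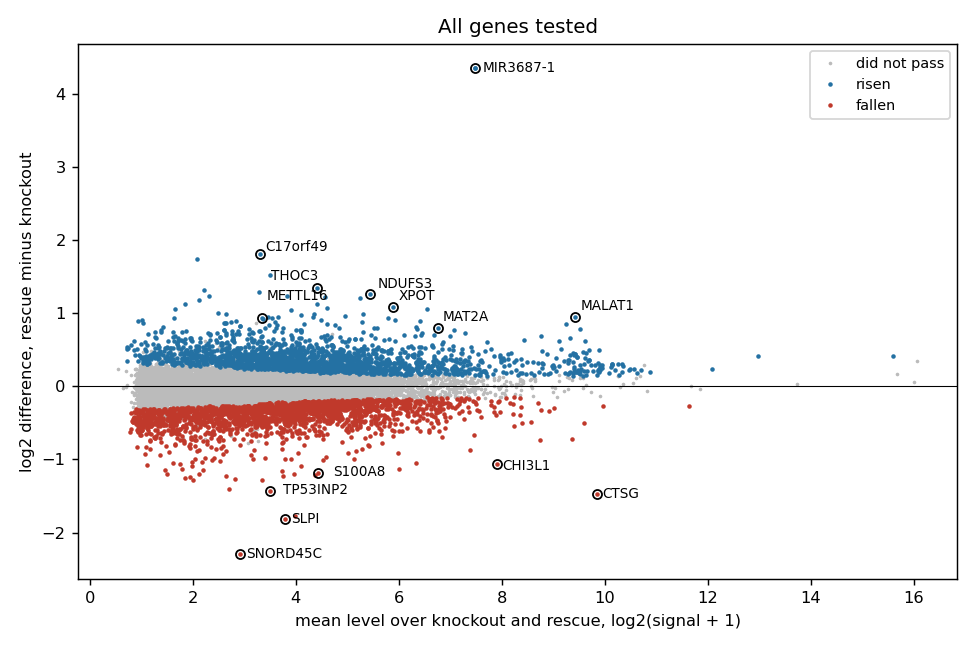
Log2 difference between rescue and knockout against the mean level over the 4 libraries, on log2(signal + 1), for all genes tested, coloured by call, with some genes of the text ringed. Risen genes lie above 0 and fallen genes below 0 at every level, and CTSG at -1.47 is the most abundant of the ringed genes that fell.

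How near rescue came to control was read from the third contrast of the same fit. It shares the rescue libraries with the comparison above, and knockout against control shares the knockout and the control libraries, so the values stand side by side only. Rescue against control called 29 genes above (0.228%) and 7 below (0.055%) of those tested, but these counts ran from 5 to 299 and from 1 to 83 over the alternatives, the highest with the replicate number as a block. Of the 1982 genes that rose in rescue against knockout, 6 were called above control and none below. Of the 2022 that fell, 18 were called above control and 5 below.

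Of the 29 genes called above control, 11 were on the granule, S100 and annexin or myeloid receptor lists, 10 were small RNAs outside the lists, 2 stood on other lists and 6 on none. Of granule proteins 6 of 15 were called above control, CTSG by 0.63 (adjusted p = 2.27e-05), LYZ by 0.85, RNASE3 by 0.54, SLPI by 0.51, CHI3L1 by 0.32 and RNASE2, looked up after the count was seen, by 0.51. Of S100 proteins and annexins 4 of 15 were, S100A8 by 1.07 (adjusted p = 1.57e-05), S100A9 by 0.64, ANXA2 by 0.38 and S100A4 by 0.30. The myeloid receptor was LILRA2 (0.38), and the 2 on other lists were CALR (0.33) and the ribosomal protein gene RPS15 (0.33). The largest difference from control was that of MIR616, at 1.81 (adjusted p = 7.45e-06), which passed the filter through the rescue libraries alone. The other small RNAs lay between 0.50 and 1.54, among them MIRLET7D at 1.07 and SNORD143 at 0.67. The 6 on no list, MNDA, ATP8B4, SH3BGRL3, MMP2, UFD1L and RPL23AP64, lay between 0.34 and 0.47. RPS15 and these 6 were looked up after the count was seen. For granule proteins the list median was 1.03 in knockout minus control and 0.32 in rescue minus control, and for S100 proteins and annexins 0.45 and 0.13, where the medians over all genes were 0.07 and 0.06.

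The lists below had a negative median in knockout minus control and a higher one in rescue minus control. They are to be read beside the medians over all genes, 0.07 in knockout minus control and 0.06 in rescue minus control. DNA replication had a median of -0.02 in knockout minus control and 0.11 in rescue minus control. DNA repair and checkpoint genes had -0.04 and 0.05, and MYC and ribosome biogenesis -0.14 and 0.13. The ATF4 list had a median of -0.29 in knockout minus control and -0.03 in rescue minus control, the serine, glycine and folate list -0.19 and 0.06, the synthetases -0.14 and 0.04 and the histones -0.41 and -0.03. In each of these 4 lists 0 members were called above or below control in rescue, in a contrast that calls few genes at all. With 2 libraries a group, that does not show that the levels were equal. Apart from the small RNAs, the genes with the largest rises in rescue (C17orf49, THOC3, NDUFS3, PUS7 and MRPL21) lay between -0.10 and 0.08 in rescue against control.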

How the data were processed

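Total RNA of NOMO-1 cells was extracted with QIAzol and depleted of ribosomal RNA, and stranded TruSeq libraries were sequenced, per the labels' protocols. The submitters' processing notes name STAR, RSEM and the build GRCh38, with no version. The authors deposited 1 abundance signal per gene and library, and no source used here says whether this signal is TPM or FPKM. Spreadsheet software had turned 19 gene names into dates in the table, and 0 columns of per-sample values were left unmapped. The members of the comparison and the gene lists were chosen with earlier results of these data known.

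Groups came from the sample titles. The filter asked for a signal of 1 or more in 2 or more libraries, which 12734 genes passed and 2325 did not. limma 3.58.1 (R 4.3.3) with a trend was fitted to log2(signal + 1) over all 6 libraries, with 3 residual and 11 prior degrees of freedom, and every adjusted p is its two-sided Benjamini-Hochberg value. Log2 differences are on that scale, which shrinks changes of low genes. The fit was tested on simulated data. Adjusted p under 0.05 counted as risen or fallen. By rule the text names METTL16, MAT2A and both BCAT genes, the 12 per direction with the largest change whose higher group averaged at least 5 and whose libraries do not overlap, and up to 4 per list with the smallest p. Genes named beyond these were looked up after their values were seen, also where a sentence gives them only as members that did not pass or that complete a family. Depth was estimated from whole-number spacing of values of transcripts up to 400 nt (89 to 104 genes per library), of which 75.6% to 86.5% lay within 0.15 of a whole number of reads. Coordinates and transcripts are from GENCODE 29 and promoter windows from RefSeq. Tables were handled in Python 3.11.15 with pandas 2.3.3 and numpy 2.4.6, and figures drawn with matplotlib 3.10.9. Alternatives changed the pseudocount, the filter, the scaling, the trend, the replicate block and the libraries in the fit. Results on some genes and sequences are not reported here.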

Additional observations from a re-analysis of the deposited data

How the results depend on the processing

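METTL16 and MAT2A rose in rescue against knockout under all 15 alternatives (log2 0.86 to 1.03 and 0.72 to 0.82). Of 176 named genes, 156 held their call under each alternative that tested them. Named genes with a mean signal under 5, such as CCR2 and CSF1R, were not tested under the filter on a mean of 5. Most named genes were chosen by their size or p in the main fit, which favours calls that hold. Leaving out 1 library at a time gave 1154 to 2492 risen and 1119 to 2538 fallen genes, with 19 to 38 and 32 to 46 of them changed at least 2-fold, METTL16 at 0.91 to 0.95 and MAT2A at 0.77 to 0.82. Rescaling without the 4 most abundant RNAs gave 3963 fallen genes. With a pseudocount of 0.1, 58 genes rose and 108 fell at least 2-fold, and under a filter on a mean signal of 5, 18 fell at least 2-fold. The rescaling also turned the sign of 4 list medians, counted only among lists whose median exceeded its spread between replicates. They became -0.0228 for respiratory complexes II to V, -0.0165 for the tricarboxylic acid cycle, -0.00749 for glycolysis and -0.00409 for the proteasome. Sign changes of medians within that spread were not counted. The cause was not tested.

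Counts in rescue against control were unstable. Genes above control numbered 17 with no filter, 194 under the filter on a mean of 5, 19 after quantile normalization, 17 after rescaling, 16 after centring, 5 without a trend, and 6 to 213 with 1 library left out. Genes below control numbered 31 under the filter on a mean of 5, 14 after quantile normalization, 12 after rescaling, 4 without a trend, and 1 to 73 with 1 library left out.

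With the replicate number as a block, 2214 genes rose and 2263 fell in rescue against knockout, and 299 and 83 were above and below control. Deviations of same-numbered libraries from their group means correlated with r of 0.101 for knockout and rescue, -0.011 for knockout and control and -0.0481 for rescue and control. With 2 numbers a group and no label that ties them to a shared culture, the numbers were not taken to pair the libraries. With 2 libraries a group, small differences could pass or miss the threshold by the choice of fit, and transcripts near 100 nt rest on few reads at a signal under 10.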

Other observations

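By GENCODE 29 class, 1688 of 10759 protein-coding genes rose in rescue against knockout and 1817 fell (15.7% and 16.9%). Over all genes tested 15.6% rose and 15.9% fell. Long intergenic noncoding RNAs had 27 of 125 risen and 19 fallen, and genes annotated as processed transcripts had 18 of 70 risen and 6 fallen. Antisense RNAs had 36 of 281 risen and 24 fallen. Processed pseudogenes had 4 of 64 risen and 9 fallen. Small nucleolar RNAs had a median log2 difference of 0.08 and microRNA precursors one of -0.09. A further 864 genes had no symbol match in that release, of which 110 rose and 88 fell.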
